A study of Mus musculus with 8 samples.

Results

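Immediate early genes are switched on within minutes of a stimulus by transcription factors that are already present in the cell, and their transcripts are short-lived. In neurons, calcium entry through synaptic receptors and voltage-gated channels acts on factors such as CREB and SRF at their promoters, so that the transcripts are widely used as a record of recent activity. Most of the encoded proteins are themselves transcription factors that act on a later wave of genes, whereas Arc acts at the synapse. The 10 immediate early genes described here are the 4 members of the Egr zinc finger family (Egr1, Egr2, Egr3 and Egr4), 3 components of the AP-1 transcription factor (Fos, Fosb and Junb), Arc, Npas4 and Nr4a1. They were taken by gene name from a table of 34299 genes, and all 10 were present, each as a single row.

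The table holds 8 bulk RNA-seq libraries of polyadenylated RNA from whole mouse brain. Fetal brain at gestation day 15 gave 3 libraries of wild-type (WT) mice and 3 of mice knocked out for Cav1 (KO), and brain at week 70 gave 2, both KO. Cav1 encodes caveolin 1, the membrane protein of caveolae. Strain, knockout allele, litter and any treatment or handling of the animals are not given in the sources used here. No week 70 WT library was analysed here, so that age could be compared only within the knockout, and nothing shows how these genes would stand in an aged brain with Cav1. Beyond the mention of biological replicates for the fetal groups, the labels do not say how the libraries relate to animals, and p-values measure only the spread between these libraries.

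Total counts ranged from 19414747 to 20833397 in WT day 15, from 14110031 to 15245283 in KO day 15, and were 20203233 and 18924304 at week 70. Depth separated the fetal genotypes completely, so that a batch and the genotype cannot be told apart. Cav1, the targeted gene, had 218 to 367 counts in WT libraries and 0 to 5 in the KO libraries of both ages. Markers of immature neurons were high in the fetal libraries and those of mature excitatory neurons at week 70, where their summed CPM (counts scaled to library size, defined with the levels of the genes) were 14600 and 13200 against 423 to 544 in the fetal libraries. The week 70 libraries differed in sex-linked transcripts, with 7969 counts of Xist and 0 from 4 Y-linked genes in replicate 1, and 4 and 2219 in replicate 2. The fetal libraries had 54531 to 93272 counts of Xist and 0 to 4 from the Y-linked genes. Sex-linked transcripts thus also differed within the comparison by age, through week 70 replicate 2. The part of sex in the differences by age was not tested. WT day 15 replicate 1 stood apart in its meningeal fibroblast markers, with a summed level of 4020 CPM against 225 and 374 in the other WT libraries. WT day 15 replicate 3 stood apart in hindbrain Hox genes, with Hoxa3 at 16.1 CPM against 0.191 and 0, and Hoxb3 at 18.6 against 0 and 0, in libraries labelled whole brain.

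Promoter sequences are shown because CREB and SRF act through short sites near the start of genes of this class. RefSeq promoter windows on GRCm38.p6 were read for 7 of the 10 genes (Egr2, Egr4, Fos, Fosb, Junb, Npas4 and Nr4a1). Of these, Egr2 has several start sites. No window was searched for Egr1, Egr3 or Arc, so that nothing is said of sites in those genes. The core of the CREB site, TGACG, was searched on both strands in the 250 bases before each start site. All 7 genes held it in at least 1 window, against 19.9% of all 26727 genes. By window, 9 of their 11 held it, against 17.9% of all 32526 windows of this length. Neither background was matched for GC content, and that of genes was not matched for the number of windows per gene. Several of the Egr2 windows overlap and hold the same cores, so that the 11 windows are not separate. The full palindrome TGACGTCA was in none of the 11 windows and in 1.56% of all windows. An exact CArG box, the site of SRF, was found in these 250 bases for 1 of the 7 genes, Egr2, against 1.64% of all 26727 genes. By window this was 4 of 11 against 1.48%. Sites further upstream and inexact matches were not searched, so that the other genes may have a CArG box there. In the sequences below, read 5′ to 3′ on the strand of the gene, capitals mark the CREB core on either strand and the CArG box. The Fos window lies at chr12:85473640-85473889 (plus strand), that of Egr4 at chr6:85513590-85513839 (minus strand) and that of Nr4a1 at chr15:101266596-101266845 (plus strand). For Egr2 (chr10:67537794-67537820, plus strand) and Npas4 (chr19:4990131-4990155, minus strand) only the stretch around the matches is given.
Fos: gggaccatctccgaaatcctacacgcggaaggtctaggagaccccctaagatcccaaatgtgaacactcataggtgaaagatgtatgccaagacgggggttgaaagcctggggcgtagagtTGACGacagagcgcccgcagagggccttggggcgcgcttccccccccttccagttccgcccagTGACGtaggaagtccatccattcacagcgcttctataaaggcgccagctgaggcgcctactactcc
Egr4: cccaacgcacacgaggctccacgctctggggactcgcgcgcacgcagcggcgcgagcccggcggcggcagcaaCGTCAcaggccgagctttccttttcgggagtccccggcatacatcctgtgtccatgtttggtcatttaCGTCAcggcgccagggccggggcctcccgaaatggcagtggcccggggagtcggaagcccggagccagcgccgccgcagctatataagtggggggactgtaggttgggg
Nr4a1: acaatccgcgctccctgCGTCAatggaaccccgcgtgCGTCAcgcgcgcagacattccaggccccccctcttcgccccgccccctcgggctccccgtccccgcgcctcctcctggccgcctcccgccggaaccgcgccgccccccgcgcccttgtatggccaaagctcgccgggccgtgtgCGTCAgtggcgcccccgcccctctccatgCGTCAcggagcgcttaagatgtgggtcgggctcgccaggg
Egr2: agtCCATATATGGgcagcgaCGTCAcg
Npas4: ttcgaCGTCAcgggaTGACGtcgga
A match is a description of the letters and not of a bound site. Npas4 carries 2 cores within 25 bases, Egr2 a CArG box and a core within 27 bases, and Nr4a1 4 cores in its window.

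The 3 groups were first compared by the level of each gene, as CPM scaled by TMM over all 8 libraries. In the fetal brain all 10 genes were low, from 0 to 12.3 CPM in any library. At week 70 both libraries lay above all fetal libraries for 9 genes, and Npas4 was the exception. Of all 20000 genes tested by age, 87.7% did not overlap between week 70 and KO day 15, with 42.1% higher at week 70. The summed level of the 10 genes was 35.7 to 38.4 CPM in WT day 15, 23.8 to 32.2 in KO day 15, and 2060 and 751 in week 70 replicates 1 and 2. In the order of the group means KO day 15 was the lowest group for 8 genes. KO and WT did not overlap for 4 of these 8 (Egr1, Egr3, Junb and Arc, all among the 7 genes tested at day 15), and they overlapped for Fos, Fosb, Egr4 and Nr4a1. Of all genes tested at day 15, 38.6% lay lower in KO without overlap and 29.8% higher. For Egr2 and Npas4 WT day 15 was lowest and overlapped with KO day 15. Because these are bulk libraries, fewer cells that express a gene and less RNA per cell cannot be told apart.

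**Figure D1:**
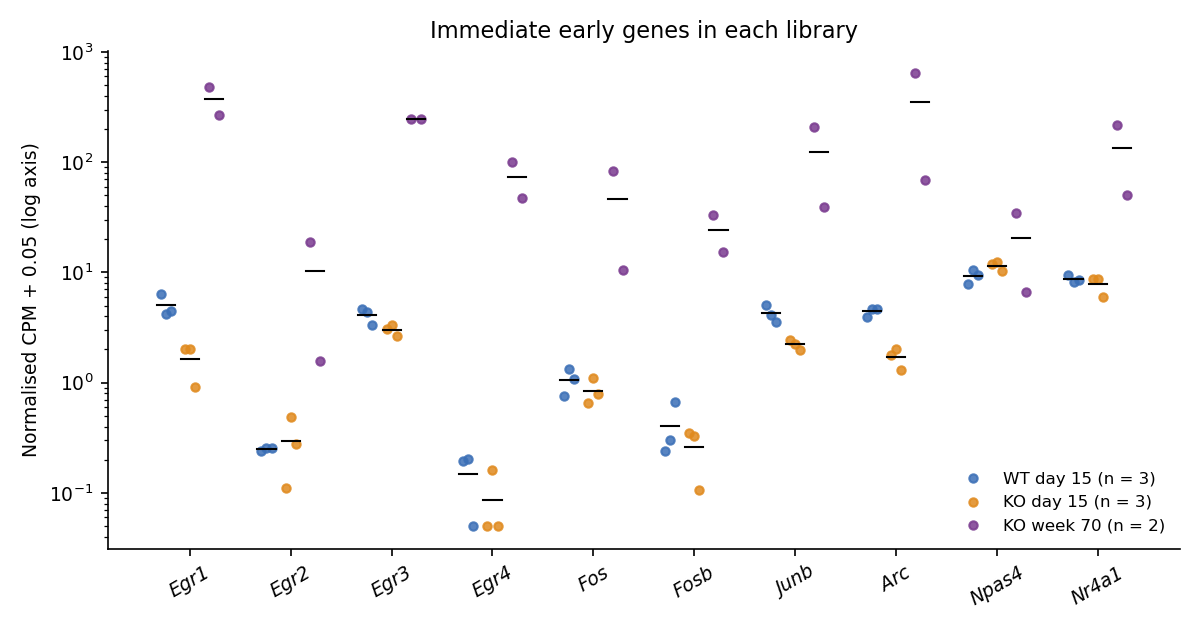
Normalised CPM plus 0.05 of each immediate early gene on a log axis, 1 point per library and a black bar for the group mean, for WT day 15 (n = 3), KO day 15 (n = 3) and KO week 70 (n = 2). Points at 0.05 are libraries with 0 counts. Week 70 points lie above both fetal groups for every gene but Npas4. The gap is small for Egr2 in week 70 replicate 2, at 1.51 CPM against 0.442 in KO day 15 replicate 2. The week 70 points of Egr3 coincide while those of Egr2, Fos and Arc are far apart.

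Levels were compared between genes only per kb of annotated exon. In WT day 15 Nr4a1 (2.49 ± 0.193 CPM per kb) and Npas4 (2.23 ± 0.307) were highest, followed by Junb at 1.82 ± 0.343, Arc at 1.43 ± 0.147 and Egr1 at 1.11 ± 0.276 (SD, n = 3). In KO day 15 Npas4 (2.76 ± 0.263) and Nr4a1 (2.21 ± 0.454) were again the highest (SD, n = 3). In both fetal groups the libraries of Nr4a1 and Npas4 overlapped, as did those of Arc and Egr1, whereas every library of Nr4a1 lay above every library of Junb in KO. At week 70 the order of the means was different: Arc at 115, Egr1 at 82.7, Egr3 at 56.0 and Junb at 53.6 CPM per kb led. Npas4 (4.99), Fosb (3.89) and Egr2 (2.98) were lowest. Every neighbouring pair in the week 70 order overlapped except Egr1 and Egr3, and the Arc mean rests on replicate 1.

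**Figure D2:**
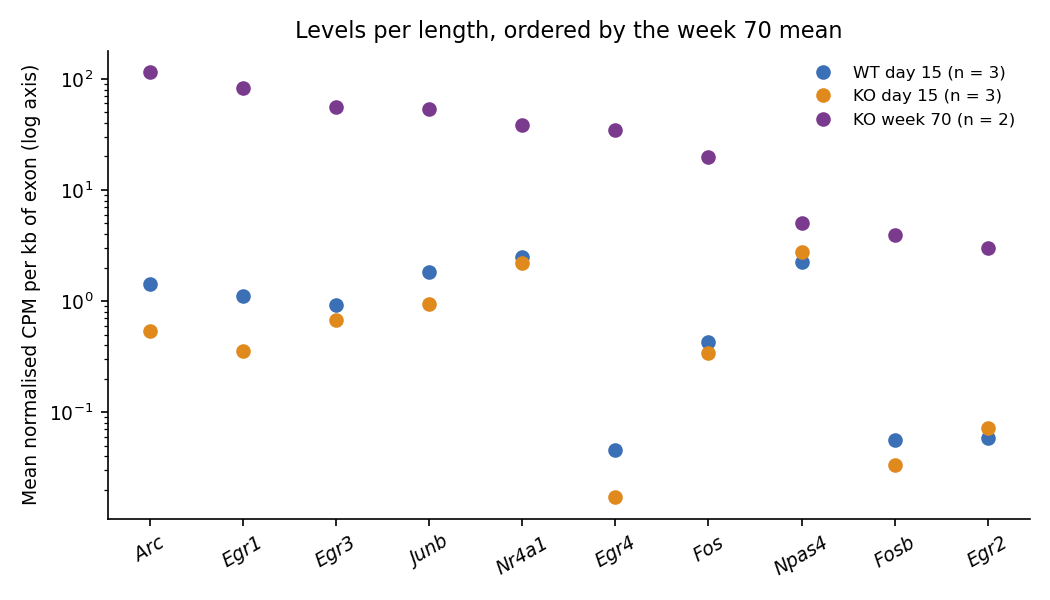
Mean normalised CPM per kb of exon on a log axis for each gene, ordered by the week 70 mean, in WT day 15 (n = 3), KO day 15 (n = 3) and KO week 70 (n = 2). Npas4 and Nr4a1 lead in both fetal groups, whereas at week 70 Arc leads and Npas4 is among the lowest 3.

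The first comparison asked whether the loss of Cav1 changed these genes in the fetal brain. Arc, Egr1 and Junb were lower in KO than in WT, and Npas4 was slightly higher. Fos, Egr3 and Nr4a1 did not pass the threshold, and Egr2, Egr4 and Fosb did not pass the filter on low counts and were not tested. Thus 4 of the 7 tested genes were called, where edgeR called 62.6% of all 19147 genes tested (30.1% higher and 32.5% lower in KO). The share among the immediate early genes is near that background.

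Arc, whose protein binds the postsynaptic cytoskeleton and promotes the removal of AMPA receptors from synapses, was counted 81, 91 and 90 times in the WT libraries and 29, 36 and 22 times in the KO libraries. This corresponds to 3.86, 4.64 and 4.63 CPM in WT and 1.73, 1.99 and 1.25 CPM in KO. The groups did not overlap, and the log2 fold change was -1.31 (SE 0.223, edgeR adjusted p 0.000458). Egr1, a zinc finger activator and the most studied member of its family in memory, was counted 134, 81 and 85 times in the WT libraries and 33, 36 and 15 times in the KO libraries. WT replicate 1 was the highest and KO replicate 3 the lowest, and the groups did not overlap. The log2 fold change was -1.54 (SE 0.305, edgeR adjusted p 0.00127), and it was -1.34 without WT replicate 1, the library with the high meningeal markers. Junb, an AP-1 subunit, was counted 106, 79 and 68 times in the WT libraries and 40, 40 and 34 times in the KO libraries, again without overlap. Its log2 fold change was -0.86 (SE 0.209, edgeR adjusted p 0.00455), and -0.72 without WT replicate 1. Without WT replicate 3, the library with the high Hox genes, Arc was at -1.28, Egr1 at -1.63 and Junb at -0.98, all called. With all 8 libraries in one fit the calls of Arc (edgeR adjusted p 0.314) and Junb (edgeR adjusted p 0.296) were lost. Junb shares 173 exonic bases with Prdx2 on the opposite strand, and the strand setting of the counting is not given in the sources used here.

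Npas4, a factor induced in neurons by calcium entry that shapes inhibitory synapses, was counted 165, 203 and 185 times in the WT libraries and 197, 222 and 179 times in the shallower KO libraries. In CPM these are 7.86, 10.4 and 9.51 against 11.8, 12.3 and 10.2, so that the highest WT library lies just above the lowest KO library. The log2 fold change was 0.39 (SE 0.140, edgeR adjusted p 0.0313). The call was lost without either of WT replicates 1 and 3 or KO replicates 1 and 2, with edgeR adjusted p from 0.0577 to 0.122. DESeq2 (adjusted p 0.117), edgeR with no filter (adjusted p 0.129) and edgeR with all 8 libraries in one fit (adjusted p 0.518) also did not make it.

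The other genes showed no call at day 15. Egr3, which like its relatives binds a GC-rich site, was counted 96, 85 and 64 times in the WT libraries and 50, 59 and 46 times in the KO libraries, with CPM that did not overlap and a log2 fold change of -0.37 (SE 0.199, edgeR adjusted p 0.126). It was called only with all 8 libraries in one fit (-0.41, edgeR adjusted p 0.0326). Fos, the classic marker of activated neurons, was counted 15, 25 and 20 times in the WT libraries and 10, 19 and 13 times in the KO libraries. Its log2 fold change was -0.24 with an SE of 0.351 (edgeR adjusted p 0.572), so that at this depth a moderate difference in either direction was not detectable. Nr4a1, an orphan nuclear receptor, was counted 199, 160 and 166 times in the WT libraries and 146, 156 and 104 times in the KO libraries, and its log2 fold change was -0.08 (SE 0.162, edgeR adjusted p 0.67). The sign changed to 0.078 without KO replicate 3. Egr2, a regulator of hindbrain segments and Schwann cells, had 4 counts in each WT library and 1, 8 and 4 in KO. Egr4 was counted 3, 3 and 0 times in the WT libraries and 0, 2 and 0 times in the KO libraries, at or under the floor of 3 counts in every fetal library, which allows up to 0.143 to 0.179 CPM per library. Fosb, from which a long-lived truncated protein is also made that gene counts cannot separate, was counted 4, 5 and 12 times in the WT libraries and 5, 5 and 1 times in the KO libraries.

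The values at day 15 moved with a correction for transcript length and GC content, which also took the median absolute log2 fold change of all tested genes from 0.519 to 0.36. The longest transcripts of the 10 genes had 51.3 to 68.2% GC, against a median of 49.9% over 14867 expressed protein-coding genes. With a smooth correction for both properties, the log2 fold change was -0.76 for Egr1 (edgeR adjusted p 0.0432) and -0.67 for Arc (edgeR adjusted p 0.0214). Junb was at -0.31 and no longer called (edgeR adjusted p 0.232). Npas4 was at 0.98 (edgeR adjusted p 0.000169), Nr4a1 at 0.37 (edgeR adjusted p 0.0521) and Egr3 at 0.0014 (edgeR adjusted p 0.997). All 7 tested genes thus lay higher with the correction, and Nr4a1 and Egr3 changed sign, Egr3 only to 0.0014. Several marker lists and the mitochondrial share separated the fetal genotypes as well. Endothelial markers had a summed level of 50.3 to 66.0 CPM in KO against 184 to 253 in WT, and neural progenitor markers 387 to 421 against 1070 to 1190, with all 6 markers of each list called lower. Erythroid markers were at 3520 to 4350 CPM in KO against 975 to 1260 in WT, with all 6 called higher. Mitochondrially encoded genes took 3.3 to 3.87% of the counts in KO and 1.26 to 1.35% in WT. The part of these differences in the values of the immediate early genes was not tested.

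**Figure D3:**
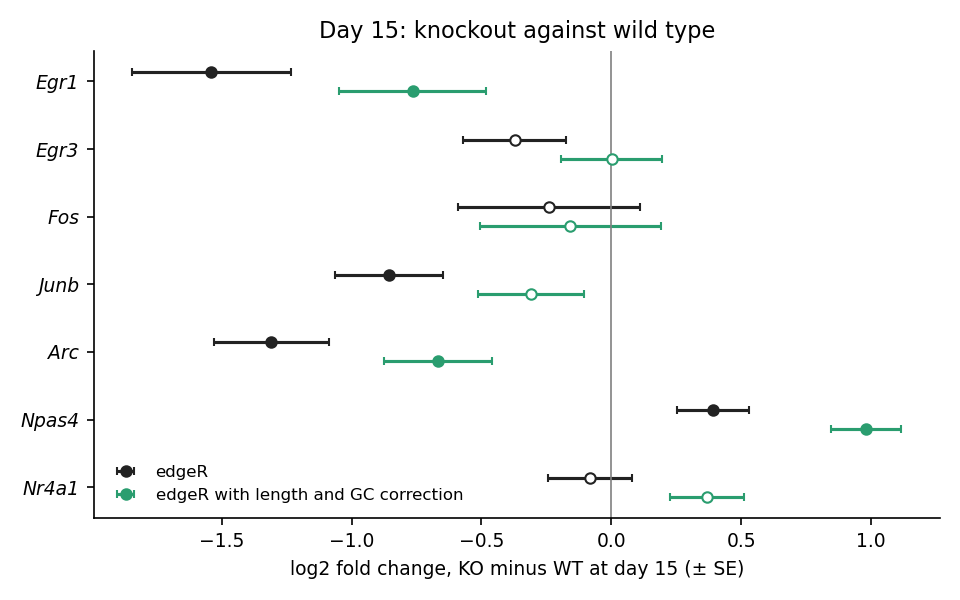
The log2 fold change between KO and WT at day 15 (KO minus WT, ± SE, 3 libraries a group) of the 7 tested genes, in edgeR (black) and in edgeR with the length and GC correction (green). Filled points have an adjusted p under 0.05. Egr1 and Arc stay below 0 in both fits, Junb is open in the corrected fit, and Npas4 lies further above 0 in the corrected fit.

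The spread among fetal replicates was set beside the counting error for the 7 tested genes, and the difference varied between genes. Each value rests on 3 libraries. The same comparison was not made over all genes, so that it shows nothing particular to these genes. In WT the coefficient of variation was 10.3% for Arc, where counting predicts 10.7%, and 7.76% for Nr4a1 against 7.56%. In KO it was 10.6% for Junb against 16.2%, and 10.9% for Egr3 against 13.9%. Egr1 was at 40.6% in KO, where counting predicts 18.9%, and at 24.9% in WT. Nr4a1 was at 20.5% in KO against 8.6%, Junb at 18.8% in WT against 10.9% and Egr3 at 16.8% in WT against 11.1%. Npas4, at 13.8% against 7.37% in WT and 9.52% against 7.08% in KO, and Fos, at 28% against 22.4% and 29% against 26.7%, were above counting error in both groups. In KO day 15, replicate 2 was the highest library for 7 of the 10 genes and replicate 3 the lowest for 7, whereas no WT library was highest for more than 4. These counts include Egr2, Egr4 and Fosb, which had few fetal counts, and Egr4 had 0 in both KO replicates 1 and 3. The order of the libraries over all genes was not computed. No gene with a group mean of at least 50 counts differed 2-fold between any pair of replicates of a fetal group among the 6 such genes in WT and the 3 in KO. Of all genes at this depth only 0.276 to 1.89% did so in a pair, so that the count of 0 is at the background. The median absolute log2 ratio of these genes was 0.34 between WT replicates 1 and 3, against 0.114 over all genes, and 0.0551 between KO replicates 1 and 2, against 0.0876.

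The second comparison asked how these genes differed by age within the knockout, and the extraction text of the labels describes only the fetal tissue, so that age and library handling cannot be told apart. Egr1, Egr2, Egr3, Egr4, Fos, Fosb, Junb, Arc and Nr4a1 were all higher at week 70 than at day 15, by 17.2-fold for Nr4a1 up to 231-fold for Egr1 and at least 429-fold for Egr4 in the ratio of mean CPM. Without week 70 replicate 1 the bound for Egr4 was at least 272-fold, and the ratio of Fosb went from 115-fold to 73.2-fold. Npas4 did not pass the threshold. Thus 9 of 10 genes were called higher, where edgeR called 82% of all 20000 genes tested, 37.6% higher and 44.4% lower. Egr2, Egr4 and Fosb passed the filter on low counts only through the week 70 libraries and so had to differ, which leaves 6 of the 7 other genes called higher. The log2 fold changes of these 6 genes lay at the 96.6th percentile of all tested genes or above, and that of Npas4 at the 69.7th.

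In the Egr family, Egr3 was counted 50, 59 and 46 times in the fetal KO libraries and 3848 and 3587 times in the aged ones. Both week 70 libraries were alike, at 248 and 246 CPM, and the log2 fold change was 6.28 (SE 0.110, edgeR adjusted p 5.9e-11). Egr1 was counted 33, 36 and 15 times in the fetal KO libraries and 7386 and 3878 times in the aged ones, with a log2 fold change of 7.75 (SE 0.309, edgeR adjusted p 3.57e-09). Egr4 rose from 0, 2 and 0 counts to 1563 and 683 (edgeR adjusted p 3.34e-08), against a floor of 3 counts in each day 15 library. Egr2 was counted 1, 8 and 4 times in the fetal KO libraries and 291 and 22 times in the aged ones, so that nearly the whole rise came from replicate 1. Its log2 fold change was 5.23 (SE 0.964, edgeR adjusted p 0.000508), and 2.48 without week 70 replicate 1. Egr2 and Egr4 passed the filter on low counts only through the week 70 libraries, so that their p-values are not a test.

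Among the AP-1 genes, Fosb was counted 5, 5 and 1 times in the fetal KO libraries and 514 and 225 times in the aged ones. Its log2 fold change was 6.71 (SE 0.464, edgeR adjusted p 2.41e-07). Fosb passed the filter on low counts only through the week 70 libraries, so that this p-value is not a test. Fos was counted 10, 19 and 13 times in the fetal KO libraries and 1287 and 152 times in the aged ones. Its log2 fold change was 5.77 (SE 0.790, edgeR adjusted p 5.81e-05), and 3.59 without week 70 replicate 1. Junb was counted 40, 40 and 34 times in the fetal KO libraries and 3214 and 575 times in the aged ones, at a log2 fold change of 5.73 (SE 0.622, edgeR adjusted p 9.21e-06), or 4.08 without week 70 replicate 1.

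Arc was counted 29, 36 and 22 times in the fetal KO libraries and 9893 and 997 times in the aged ones. In CPM the week 70 libraries stood at 638 and 68.3, which is 385-fold and 41.2-fold over the KO day 15 mean. The log2 fold change was 7.64 (SE 0.859, edgeR adjusted p 1.22e-05), and 5.26 without replicate 1. Nr4a1 was counted 146, 156 and 104 times in the fetal KO libraries and 3355 and 739 times in the aged ones, and its log2 fold change of 4.02 (SE 0.487, edgeR adjusted p 2.22e-05) became 2.61 without replicate 1. With either week 70 library left out, the log2 fold changes of all 9 genes stayed positive. In such fits the lone week 70 library is assumed to vary like the others. The 9 calls were also made with the length and GC correction, which lowered all 9 log2 fold changes. Among the 9, Egr2, Egr4 and Fosb passed the filter on low counts only through the week 70 libraries, so that their calls are not a test. The corrected values were 6.51 for Egr1, 4.65 for Egr2, 5.57 for Egr3, 8.96 for Egr4 and 5.32 for Fos. They were 5.66 for Fosb, 4.54 for Junb, 6.44 for Arc and 3.06 for Nr4a1.

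Npas4 was counted 197, 222 and 179 times in the fetal KO libraries and 538 and 96 times in the aged ones. Week 70 replicate 1, at 34.7 CPM, lay above all day 15 libraries and replicate 2, at 6.58 CPM, below them. The log2 fold change was 0.77 (SE 0.477, edgeR adjusted p 0.157). It was 1.52 with replicate 1 alone (edgeR adjusted p 5.3e-07) and -0.89 with replicate 2 alone (edgeR adjusted p 0.0014), so that these data give no direction for Npas4 by age.

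The spread between the week 70 libraries was the most uneven feature of these genes. All 10 were higher in replicate 1, and 8 of them at least 2-fold. Over the 13244 genes with a mean of at least 50 counts in these libraries, 0.596% were at least 2-fold higher in replicate 1 and 1.11% in replicate 2. The median log2 ratio of replicate 1 over replicate 2 was 2.20 for the 10 genes and -0.04 over all 13244 genes. With 1 library a side there is no test, and the ratios describe these libraries.

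The ratios formed a graded series. Egr2 was 12.4-fold, Arc 9.34-fold and Fos 7.97-fold higher in replicate 1. Npas4 (5.27-fold), Junb (5.26-fold) and Nr4a1 (4.27-fold) followed. Egr4 and Fosb were each 2.15-fold higher and Egr1 1.79-fold, and Egr3 was equal at 1.01-fold. The absolute log2 ratio of Egr1 was larger than that of 97.3% of the 13244 genes, and for the 8 genes past 2-fold this was 98.6% or more. For Egr3 it was 4.49%. Within the Egr family, the gene with the least difference thus stood beside the gene with the largest ratio of the 10, Egr2.

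**Figure D4:**
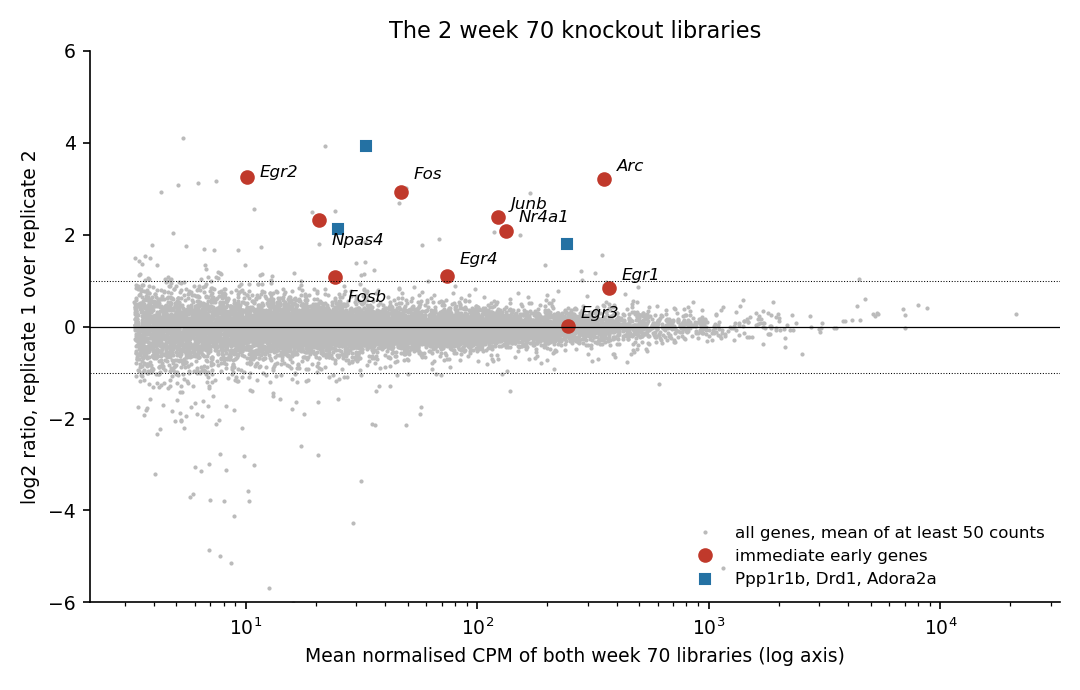
The log2 ratio of week 70 replicate 1 over replicate 2 against mean normalised CPM on a log axis, for 13244 genes (grey), the 10 immediate early genes (red) and 3 genes of striatal projection neurons (blue squares). Dotted lines mark 2-fold, and 3 genes beyond 6 on the log2 scale lie outside the axis. Of the red points 8 lie above the upper line, Egr1 just under it and Egr3 on 0.

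The other genes of the response were examined with lists of 35 further immediate early genes, 18 later activity-response genes and 41 upstream regulators. Of the further immediate early genes, 32 had enough counts for the week 70 pair, 30 of these were higher in replicate 1 and 7 at least 2-fold on the scale with 0.5 CPM added, with a median log2 ratio of 0.58. The 7 were Ccn1 (6.06-fold), Btg2 (3.70-fold), Ier2 (3.62-fold), Dusp1 (3.47-fold), Apold1 (2.28-fold), Trib1 (2.23-fold) and Dusp6 (2.07-fold). Sik1 was at the limit, with 2.02-fold in plain CPM. Dusp1 and Dusp6 encode phosphatases that switch off MAP kinases. Homer1, Jund and Fosl2 had ratios of 1.00, 1.01 and 0.99. The later genes, which encode growth factors, neuropeptides and synaptic proteins, had a median log2 ratio of 0.07, with 11 of 18 higher in replicate 1. The neurotrophin gene Bdnf was at 0.816, Vgf at 0.83 and Nptx2 at 1.07 in replicate 1 over replicate 2. Only Penk (4.22-fold) and Tac1 (2.39-fold), neuropeptide genes of striatal projection neurons, passed 2-fold among them. Upstream regulators had a median log2 ratio of -0.03 with 0 of 40 past 2-fold, and 12 heat shock genes one of -0.06 with 0 past 2-fold.

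Markers of the striatum moved with the immediate early genes between the week 70 libraries. On the inhibitory neuron list Adora2a was at 62.5 and 3.63 CPM, Drd1 at 41.1 and 9.11 and Ppp1r1b at 379 and 108 in replicates 1 and 2. The general inhibitory markers Gad1 (407 and 531), Gad2 (177 and 258) and Slc32a1 (134 and 159) were lower in replicate 1. Of the mature excitatory neuron markers, Camk2a was at 5910 and 4890 CPM and Slc17a7 at 1610 and 1570, whereas Slc17a6, of thalamus and brainstem neurons, was at 25.7 and 88.3. Ttr, a choroid plexus gene chosen after its values were seen, had 910 counts in replicate 1 and 32809 in replicate 2. The part of these regional differences, and of sex, in the spread of the immediate early genes was not tested.

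**Figure D5:**
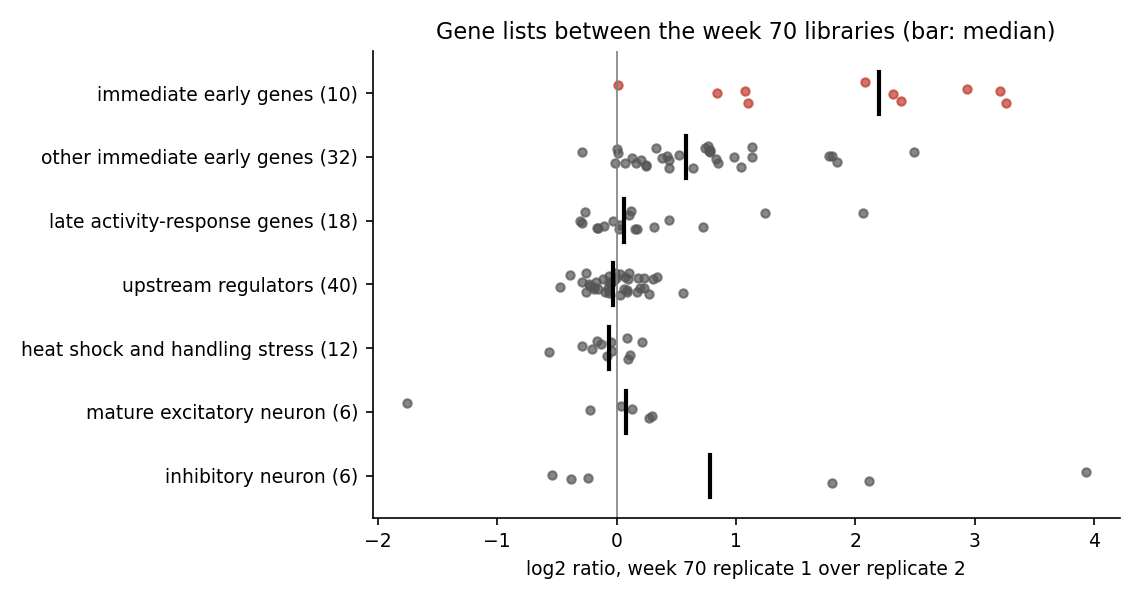
The log2 ratio of week 70 replicate 1 over replicate 2 for the genes of 7 lists, 1 point per gene with at least 50 counts on average (their number is in brackets), with a black bar at each median. The immediate early genes have a median of 2.20, the further immediate early genes one of 0.58, and the later genes, regulators and heat shock genes lie around 0.

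The same lists were read in the comparisons of groups. At day 15, 26 of 34 tested further immediate early genes were called, 23 of them lower and 3 higher. Their median log2 fold change was -0.76, against 0.03 over all tested genes, of which 62.6% were called, 32.5% lower and 30.1% higher. The largest falls were Jun (-1.90), Ier5 (-1.60) and Jund (-1.58), of which Jun and Jund are AP-1 subunits. The rises were Rgs2 (0.72), Tiparp (0.55) and Klf6 (0.20). With the length and GC correction the median was -0.54 and 21 were called, 19 of them lower. Of 17 tested later genes 6 were lower and 4 higher, a called share near that of all genes, with a median of -0.14 (-0.30 corrected). Vgf (-1.94), Nptx1 (-1.14) and Nptx2 (-1.08) fell most, and Tac1 (0.87), Bdnf (0.84) and Inhba (0.76) rose most. Of 40 tested regulators 24 were lower and 9 higher, with a median of -0.34, but with the correction 14 were lower and 10 higher, with a median of -0.04. Mrtfa, an SRF cofactor, fell by 1.32 on the log2 scale, Nab2, for a corepressor of Egr proteins, by 1.22 and the kinase gene Rps6ka2 by 1.15, while Calm2, for calmodulin, rose by 1.08 and Crem by 0.71. In upper-quartile scaling the calls were 13 higher and 19 lower for the regulators, and 6 higher and 5 lower for the later genes.

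By age in KO, 26 of 34 tested further immediate early genes were called higher and 4 lower at week 70, where 37.6% of all tested genes were called higher and 44.4% lower. The median log2 fold change was 1.89 (1.09 with the length and GC correction), against 6.02 for the 10 genes (5.44 corrected) and -0.19 over all tested genes. Among those 10 are Egr2, Egr4 and Fosb, which passed the filter on low counts only through the week 70 libraries. Csrnp1 (3.72), Gadd45b (3.64) and Klf2 (3.33) rose most, and Nfil3 (-0.53), Tiparp (-0.36) and Gadd45g (-0.35) fell. Maff also fell (-2.33) on a mean of 37 counts. All 17 calls among the 18 later genes were higher, led by Vgf (6.44), Rasgrp1 (6.29) and Ptgs2 (6.25). Ptgs2, at a mean of 0.171 CPM in KO day 15, passed the filter on low counts only through the week 70 libraries and so had to differ. Of 40 tested regulators 29 were higher and 7 lower. The kinase gene Camk2a (7.14), Map2k1 (4.34) and the NMDA receptor subunit gene Grin1 (3.59) rose most, and Creb1 itself (-1.73), Cacna1d (-1.69) and Cacna1c (-0.92) fell. Nab2, chosen after its values were seen, had a log2 fold change of 3.38.

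Genes with a pattern most like the mean standardised profile of the 10 genes were sought among 12635 genes outside the lists. Over the 8 libraries the highest Pearson correlations were those of Lrrc10b (0.992), Eif2s3x (0.988), Rasgef1c (0.987), Dnlz (0.986) and Dhrs7b (0.986). These points share their groups, so that the correlations follow mostly the difference between ages. For deviations from the group means the highest were Atf4 (0.998), Shld2 (0.996), Scn4b (0.993), Msantd3 (0.993) and Prkch (0.992), which follow mostly the difference between the week 70 libraries. Atf4, a stress-response factor, was at 226 and 177 CPM in those libraries, and Scn4b, a sodium channel subunit gene, at 391 and 170. Lrrc10b was at 108 and 28.4 CPM at week 70 and at 0.897 to 2.09 in the fetal libraries.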

How the data were processed

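Per the file headers, the deposited values are whole-number read counts for each Ensembl identifier in 8 libraries. FastQC, cutadapt, Trimmomatic, HISAT2, featureCounts and edgeR, and the builds GRCm38 and GRCm39, are named per the submitters' processing notes, without versions or roles. Strand use and the treatment of multi-mapping reads are not given in the sources used here.

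Groups followed the sample titles, and each column carried 1 title. The test was that of edgeR 4.0.16 under R 4.3.3 (filterByExpr, TMM, quasi-likelihood F-test, two-sided) with Benjamini-Hochberg adjustment over all genes tested and a threshold of 0.05. Genotypes were compared over the 6 fetal libraries and ages over the 5 KO libraries. Levels are CPM scaled by TMM over all 8 libraries, so that ratios of levels differ slightly from fitted fold changes. Ratios between libraries used CPM plus 0.5 for log2 values and percentiles, and plain CPM for folds. Floors are 3 counts per library and cover counting error only.

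Exon length, transcript length and GC came from GENCODE M 21 on GRCm38. It matched 33367 of 34299 identifiers. The correction fitted a smooth curve of both properties to the log2 deviations of a library from gene means (mgcv 1.9.3) and entered it as an offset. RefSeq synonyms matched Cyr61, Mkl1 and Mkl2 to Ccn1, Mrtfa and Mrtfb. Marker lists of 14 cell types were read as sums of CPM.

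The genes, lists and alternatives were chosen with earlier results of these data known. All 10 immediate early genes are named. From each other list the 3 largest rises and falls among called genes with a mean of at least 50 counts are named, and others were chosen after their values were seen; 1 gene that the rule names is not reported here. The alternatives were DESeq2 1.42.0, scaling by RLE or upper quartile, omission of the filter or a minimum mean of 10 counts, 1 joint fit of the 8 libraries, the replicate block, the correction, both together, removal of haemoglobin and mitochondrially encoded genes, and each library left out. The scripts were tested on simulated data.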

Additional observations from a re-analysis of the deposited data

How the results depend on the processing

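At day 15, 4 of the 10 genes were called, 2 with all 8 libraries in one fit, which shares 1 estimate of the spread over all groups, and 3 or 4 under every other alternative. By age 9 were called, and at least 9 under every alternative that kept both week 70 libraries. Among them are Egr2, Egr4 and Fosb, which passed the filter by age only through the week 70 libraries. The calls numbered 4 and 9 with the replicate block. With the block and the length and GC correction together, 19 regulators were called at day 15 against 33. Nr4a1 at day 15 changed sign to 0.088 with upper-quartile scaling, 0.37 with the correction, 0.36 with the block and the correction, and ranged from -0.19 to 0.078 with 1 library left out. Egr3 at day 15 changed sign to 0.0014 with the correction and 0.0092 with the block and the correction. Npas4 by age changed sign to -0.27 with the correction, -0.67 with the block and the correction, and ranged from -0.89 to 1.52 with 1 library left out. The cause was not tested. The all-gene median shifted by 0.172 (day 15) and -0.25 (age) on the log2 scale when upper quartiles set the scaling. The labels do not say that replicate numbers pair the libraries. Same-numbered fetal libraries had correlations of deviations from -0.231 to -0.184, and same-numbered KO libraries of both ages 0.0509 and 0.00779. Deviations from the mean of so few libraries are tied to each other, so that these values cannot show whether the libraries are paired. Egr2, Egr4 and Fosb did not pass the filter on low counts at day 15. By age, the block and the correction together gave log2 fold changes of 6.22 for Egr1, 8.49 for Egr4 and 5.21 for Fosb.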

Other observations

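Heat shock genes, which respond to cell stress and to the handling of tissue, were read in the same comparisons. Of 12 tested, 6 were called lower and 3 higher in KO in edgeR. Over all tested genes 62.6% were called, 32.5% lower and 30.1% higher. The median log2 fold change of the 12 was -0.35 (-0.24 with the length and GC correction). Bag3 had a log2 fold change of -2.51 (edgeR adjusted p 1.84e-05), Hmox1 one of -1.37 and Hsph1 one of -0.67. Hspa1a and Hspa1b, near-identical genes whose counts are uncertain and which were chosen after their values were seen, were at 0.531 and 0.59 CPM in KO against 3.28 and 3.38 in WT. Hspe1 (1.15), Hsp90aa1 (0.64) and Dnaja1 (0.59) were higher. At week 70 all 12 were called higher than in KO day 15, with a median log2 fold change of 1.57, where 82% of all tested genes were called and 37.6% were higher.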
